A study of Homo sapiens with 3 samples.

Results

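HIST1H1D, now named H1-3, is one of the 13 promoters at which endogenous sequence was deleted with Cas9 in HEK293T cells, a human embryonic kidney cell line, and at which capped RNA 5′ ends were then read. The series edits promoter sequence in place to learn how it directs the choice of start bases. All lines of the deposited list that carry this target name were taken, and they numbered 6694 of 131949 5′ ends (5.07%). Of these, 1383 carried a deletion (edited ends) and 5311 did not (unedited ends). Both kinds came from the same cells, which had received Cas9 protein with 1 guide RNA for the target in 2 rounds of transfection. The list pools 2 CRISPR-Cap libraries without a column that tells them apart, so every group below is 1 sample. No p-value is given, and each 95% interval covers counting error only (Wilson for a share, Newcombe for a difference of shares, a normal approximation for a mean position or, on the log scale, for a ratio).

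Linker histones bind where DNA enters and leaves the nucleosome and help to compact chromatin, and H1-3 encodes one of the somatic variants. Like the core histone genes beside it, it belongs to the replication-dependent histone genes, which are transcribed mainly in S phase, lack introns and give an RNA that ends in a stem-loop in place of a poly(A) tail. Promoters of linker histone genes carry a TATA box close to the start, a CCAAT box upstream of it, and farther upstream the H1 box, AAACACA.

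The gene lies on the minus strand of chromosome 6 (hg38). RefSeq places it at 26234212 to 26234987, and GENCODE release 29 annotates it at 26234268 to 26234933 with 1 exon whose first base is the A of the start codon. The most used unedited start, called the main start here, was 26234987, the same base as the RefSeq start, which leaves a leader of 54 bases before the start codon at 26234933. The most deleted base, 26234893, lay 94 bases downstream of the main start at coding position 41, counted from the A of the start codon. As the deletions are placed in the list, 88.1% of the edited ends lacked it. Some deletions between repeated bases can be placed in several ways, and some of these placements spare this base. The site of editing was therefore in coding sequence, downstream of the start codon.

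The stretch around the starts is shown because all of the main starts and the promoter words fall in it (chr6:26234978-26235127, minus strand, RefSeq promoter table of GRCh38.p14). Capitals mark, in order, the H1 box AAACACA, the CCAAT word, the TATAAA word and, near the 3′ end, the 3 most used start bases:
Promoter and starts: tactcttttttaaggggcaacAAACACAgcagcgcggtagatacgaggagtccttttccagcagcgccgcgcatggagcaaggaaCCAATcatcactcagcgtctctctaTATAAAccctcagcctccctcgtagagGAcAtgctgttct
TATAAA began 30 bases upstream of the main start, CCAAT 55 bases and AAACACA 119 bases upstream. With both strands searched from 250 bases before to 50 after the annotated start, TATAAA was in 11.5% of all 35116 promoters in the table, CCAAT in 34.6% and AAACACA in 5.64%. Of the 6 H1 genes H1-1 to H1-6, all of which lie on chromosome 6, the windows of 6 held AAACACA, 6 held CCAAT and 3 held TATAAA. In H1-1 the AAACACA match was on the opposite strand only. A match of letters is a description and not a binding site.

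The start of the coding sequence is shown with the bases missing from each of the 6 most frequent deletions in capitals, since these 6 made up 80.7% of the edited ends (chr6:26234864-26234933, minus strand, GENCODE release 29). In the unedited line the capitals mark the start codon:
6-base deletion, 538 ends: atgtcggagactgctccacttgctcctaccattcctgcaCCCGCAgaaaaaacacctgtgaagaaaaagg
6-base deletion, 279 ends: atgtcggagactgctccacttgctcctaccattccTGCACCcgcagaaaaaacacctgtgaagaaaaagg
21-base deletion, 123 ends: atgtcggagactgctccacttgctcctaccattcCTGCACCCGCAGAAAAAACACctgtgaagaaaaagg
15-base deletion, 98 ends: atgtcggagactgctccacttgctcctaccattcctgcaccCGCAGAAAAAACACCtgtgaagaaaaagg
9-base deletion, 48 ends: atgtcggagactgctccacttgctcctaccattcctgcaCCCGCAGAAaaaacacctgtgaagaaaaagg
12-base deletion, 30 ends: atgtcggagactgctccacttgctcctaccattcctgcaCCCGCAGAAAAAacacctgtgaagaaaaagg
Unedited: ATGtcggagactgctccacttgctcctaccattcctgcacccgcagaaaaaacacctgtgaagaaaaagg
All 6 lengths are multiples of 3. The first 30 coding bases and coding bases 31 to 60 each matched transcripts of 1 gene in GENCODE, HIST1H1D itself, so a read that carries this stretch intact matches no other annotated transcript.

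The edited share of the ends was 20.7% (19.7 to 21.6%), and in the other 12 targets it ran from 39.6% to 96.6%. This share joins how often the locus was edited with how much RNA the edited alleles gave. Genomic DNA of the edited cells was not analysed here, so these cannot be told apart. Most edited ends read at this target started far upstream of their deletion. The edited ends had a median of 93 retained bases, counted from the 5′ end up to the deletion, and at least 29. The unedited ends all started 36 or more bases upstream of the most deleted base. Deletions began 33 to 101 bases downstream of the main start. These distances describe only ends that were read.

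Few deletions held most of the edited ends. There were 84 distinct deletions of 1 to 76 bases, of which 34 were seen in 1 end each and 10 in at least 10 ends. The 6-base deletion at 26234889 to 26234894 held 538 ends, 38.9% (36.4 to 41.5%) of the edited ends, and removed codons 14 and 15 as placed. Moved 3 bases toward the start it is the same allele and removes codons 13 and 14. A 6-base deletion 4 bases closer to the start, 26234893 to 26234898, held 279 ends (20.2%, 18.1 to 22.4%). As placed, it removed parts of codons 12 and 14 with codon 13 between them. Moved 2 bases toward the start it is the same allele and removes exactly codons 12 and 13. These 2 alleles held 59.1% of the edited ends together.

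Next came longer deletions in the same place. The 21-base deletion at 26234879 to 26234899 held 123 ends (8.89%), and the 15-base deletion at 26234878 to 26234892 held 98 ends (7.09%). The 9-base deletion at 26234886 to 26234894 held 48 ends and the 12-base deletion at 26234883 to 26234894 held 30 ends. Both share their upstream edge with the most frequent allele and remove whole codons from codon 14 on. Deletions that removed whole codons in the placement given numbered 15 and held 47.6% of the edited ends (44.96 to 50.2%). These figures depend on the placement and are a minimum. The deletions with 279, 123 and 98 ends are not among them, yet each can be placed so that it removes whole codons.

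**Figure D1:**
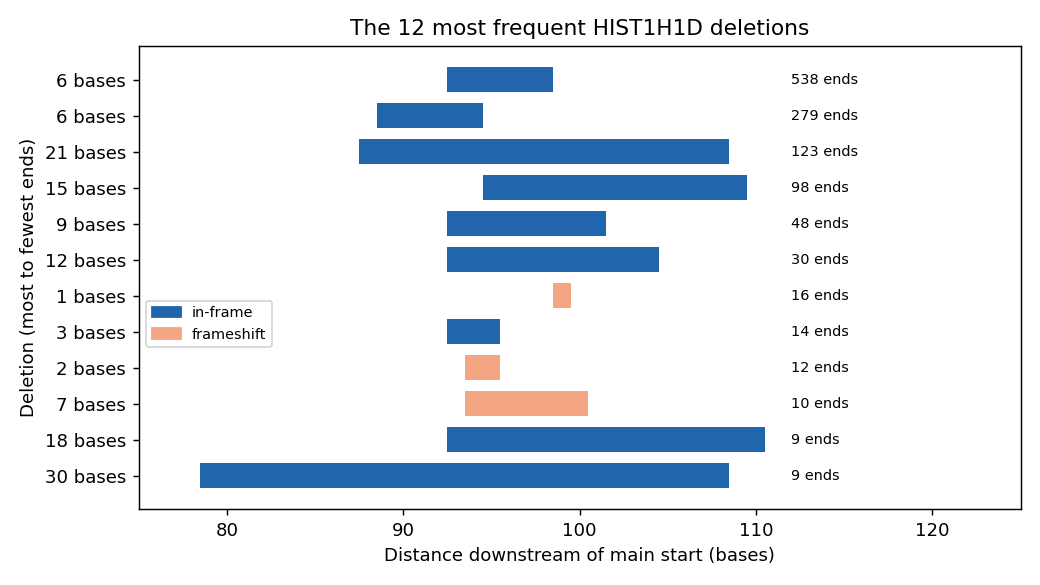
The 12 deletions with the most edited ends, drawn to scale as bars along the distance downstream of the main start in bases, with the number of ends beside each. Of the 12, 9 keep the reading frame, and the upper 2 bars, with 538 and 279 ends, overlap 94 bases downstream of the main start.

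The remaining members of the 12 most frequent were small. A 1-base deletion at 26234888 held 16 ends, a 3-base deletion of codon 14 (26234892 to 26234894) held 14, a 2-base deletion (26234892 to 26234893) held 12 and a 7-base deletion (26234887 to 26234893) held 10. An 18-base deletion (26234877 to 26234894) and a 30-base deletion (26234879 to 26234908) held 9 ends each, as did 2 further deletions that share this place in the order. Only 1 deletion, with 1 end, reached the start codon or the leader.

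As the deletions are placed in the list, the bases missing from at least 50% of the edited ends were coding positions 40 to 45. Those missing from at least 10% were positions 35 to 55. The guide sequence was not analysed here. Cas9 of the type that reads NGG cuts 3 bases inside the protospacer, and an NGG on the template strand opposite coding positions 34 to 36 would place that cut between positions 39 and 40. In some equivalent placement, 94.9% of the edited ends lacked a base beside that point. A neighbouring NGG, opposite positions 40 to 42, would place the cut after position 45, and 72.4% of the edited ends lacked a base beside it.

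The reading frame was kept in most of the RNA that carried a deletion. The list has columns for deletions alone, so insertions cannot be counted, nor can their effect on the frame. Of the 1382 edited ends whose deletion lay wholly in coding sequence, 1247 had a length that is a multiple of 3, an in-frame share of 90.2% (88.6 to 91.7%). Among the distinct deletions the share was 50.6% (40.1 to 61.1%), 42 in-frame and 41 frameshift. Over all distinct deletions, coding or not, 50% at HIST1H1D had a length divisible by 3. In the other 12 targets this was 19.1% to 47.8% (median 30.7%). No in-frame deletion created a stop codon ahead of the natural end of the 221-codon reading frame. The 22 frameshift deletions whose length leaves a remainder of 1 put the first stop at codon 10 to 20, and the 19 with a remainder of 2 put it at codon 36 to 42.

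The 6 most frequent deletions were all in-frame. In-frame deletions had 29.7 ends on average and a median of 3, with up to 538. Frameshift deletions had 3.29 ends on average and a median of 2, and none exceeded 16. Outside the 6 most frequent deletions, 36 in-frame deletions held 131 ends and 41 frameshift deletions held 135, an in-frame share of 49.2% (43.3 to 55.2%). That limit of 6 was set after the values were seen and leaves out in-frame deletions alone, which lowers the share by construction.

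Repeats at the deletion junction went with the frequent alleles too. A repeat here is the number of bases by which a deletion can be moved without changing the allele. Only 15 of the 84 deletions had a repeat of at least 2 bases, and they held 78.8% of the edited ends (76.6 to 80.9%). The 2 most frequent deletions had repeats of 3 and 2 bases, and the 21-base and 15-base deletions had 4 bases each. With a repeat of at least 2 bases there were 10 in-frame deletions with 1067 ends (median 7.5 ends) and 4 frameshift deletions with 22 ends (median 4.5). With a repeat of 0 or 1 base there were 32 in-frame deletions with 180 ends and 37 frameshift deletions with 113 ends, both with a median of 2 ends. The part that junction repeats have in the in-frame share was not tested, and the frequency of each allele in DNA was not analysed here.

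**Figure D2:**
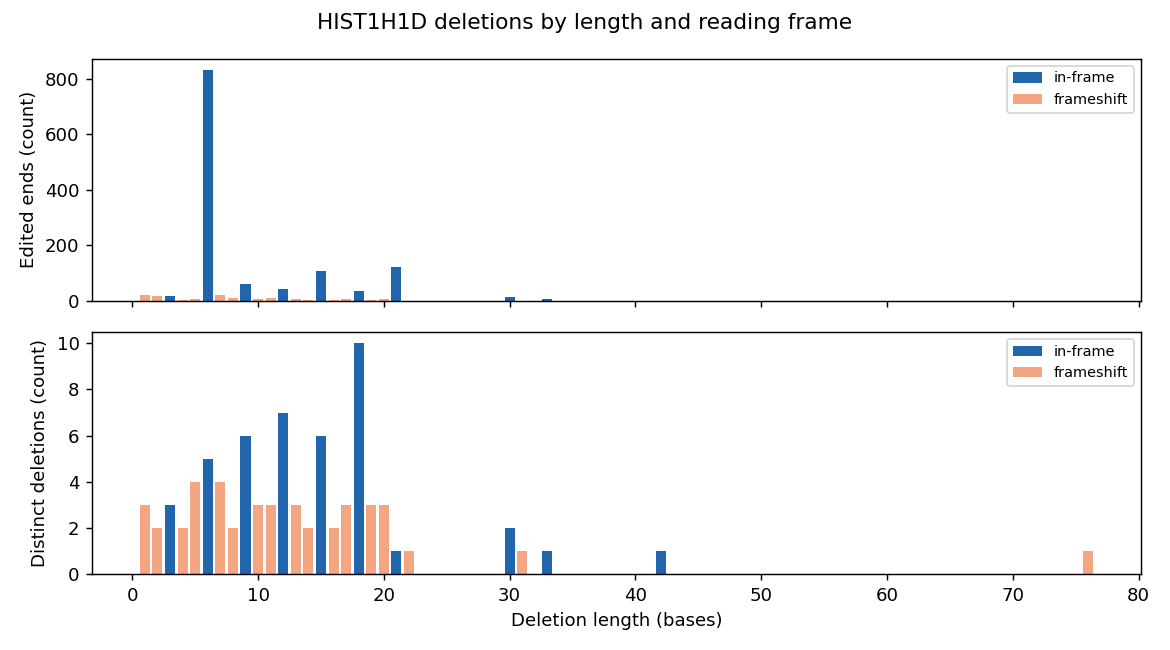
Edited ends (upper panel) and distinct deletions (lower panel) by deletion length in bases, in-frame lengths in blue and frameshift lengths in orange. The 6-base bar holds 831 ends, 60.1% of the edited ends, from 5 distinct deletions, while distinct deletions of both kinds spread over most lengths up to 20 bases.

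Across the targets, 90.2% of the edited ends at HIST1H1D had a deletion length divisible by 3, against 10.9% to 68.8% in the other 12 (median 26.7%). The other targets whose most deleted base lies in annotated coding sequence had 68.8% (C19orf43), 56.2% (TXNRD2), 26.8% (TMED9) and 48.7% (NDUFV3). Without the most frequent deletion of each target the share was 83.9% at HIST1H1D, 65.5% at C19orf43, 50% at TXNRD2, 43.01% at TMED9 and 39.7% at NDUFV3. LETMD1 had 64.5% of its ends at such lengths although its site is not coding, and 40.7% without its most frequent deletion. SOCS1, also outside coding sequence, had 48.1% without its own, on 66 edited ends in all. No test between targets was made.

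Transcription started at a narrow group of bases on both kinds of RNA. The main start and the positions 2 and 3 bases upstream of it together held 97.3% of the edited ends (96.3 to 98.1%) and 97.5% of the unedited ends (97.1 to 97.9%). The main start itself is an A after a C, the classical pyrimidine-purine pair of an initiator. The other two positions do not have that pair: 26234989 is an A after a G, and 26234990 is a G after a G. Only 54.6% of the edited ends and 56.7% of the unedited ends lay on such a pair.

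The main start took 733 edited ends, 53.0% of them (50.4 to 55.6%), and 2932 unedited ends, 55.2% (53.9 to 56.5%). Position 26234989, 2 bases upstream, took 487 edited ends (35.2%, 32.7 to 37.8%) and 1753 unedited ends (33.01%, 31.8 to 34.3%). Position 26234990, 3 bases upstream, took 126 edited ends (9.11%, 7.71 to 10.7%) and 495 unedited ends (9.32%, 8.57 to 10.1%). The order of the 3 was the same in both kinds of RNA and their intervals overlapped between the kinds at each position. The ratio of ends at 26234989 to ends at the main start was 0.664 on edited RNA and 0.598 on unedited RNA, a ratio of ratios of 1.11 (0.977 to 1.26).

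**Figure D3:**
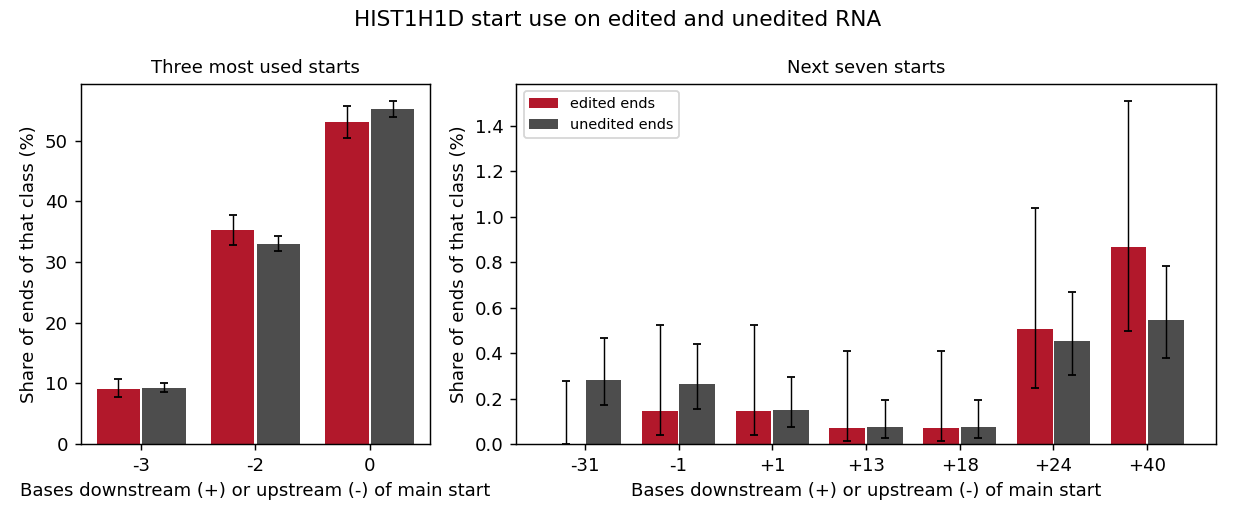
Share of the ends of each class, in percent, at the 10 positions with the most ends over both classes, placed by distance from the main start; edited ends are red, unedited ends grey, and bars carry Wilson 95% intervals. The 3 main positions are in the left panel and the next 7, all under 1%, in the right panel; intervals of both classes overlap at each of the 10.

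The remaining starts were rare. Position 26234947, a G after a T 40 bases downstream of the main start, took 12 edited ends (0.868%, 0.497 to 1.51%) and 29 unedited ends (0.546%, 0.380 to 0.783%). Position 26234963, an A after a T 24 bases downstream, took 7 edited ends (0.506%) and 24 unedited ends (0.452%). Both lie in the leader, ahead of the start codon.

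Upstream of the 3 main positions there were almost no ends. Position 26235018, an A after a T 31 bases upstream of the main start, took no edited end and 15 unedited ends (0.282%, 0.171 to 0.465%). A count of 0 among 1383 edited ends allows a share of up to 0.217% by the limit of 3 counts and up to 0.277% by the Wilson interval, and 3.91 ends would have been counted there at the unedited share. The interval of the difference, −0.465 to 0.0160 percentage points, spanned 0. In all, ends more than 3 bases upstream of the main start made up 0.0723% of the edited ends (1 end) and 0.377% of the unedited ends (20 ends), with overlapping intervals of 0.0128 to 0.408% for edited and 0.244 to 0.581% for unedited ends.

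The 4 other positions among the 10 most used took few ends of either class. Position 26234988, 1 base upstream of the main start, took 2 edited and 14 unedited ends, and 26234986, 1 base downstream of it, took 2 edited and 8 unedited ends. Positions 26234969 and 26234974 each took 1 edited and 4 unedited ends. Outside the 10, position 26234946, 41 bases downstream of the main start, took 3 edited ends (0.217%, 0.0738 to 0.636%) and no unedited end (Wilson upper bound 0.0723%). Of the 36 positions it was the 1 whose difference had an interval that excluded 0 (0.0566 to 0.636 points, not adjusted for the number of positions), and it is named because of that value. In total 36 positions were used, 18 by edited ends and 32 by unedited ends, with 14 in common. Ends more than 10 bases downstream of the main start made up 2.31% of the edited ends (1.64 to 3.25%) and 1.66% of the unedited ends (1.35 to 2.04%). At or past the first base of the start codon there were 3 edited ends and 4 unedited ends.

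Edited and unedited ends were also compared with matching, in which each deletion was set against the unedited ends at positions that leave at least 8 bases before it, at positions with at least 10 ends. The 8-base limit left out no edited end, and 99.1% of the unedited ends met it for every deletion. The matched comparison is therefore not independent of the one without matching. The main-start share was then 53.5% for edited ends and 55.6% for unedited ends, a difference of −2.09 percentage points (−5.06 to 0.859, 1369 edited and 5270 unedited ends). The upstream shift of the mean position was −0.193 bases (−0.447 to 0.0615), which is downstream on edited RNA. In all, 2.69% of the starts were placed differently, taken as the summed difference of the shares over positions divided by 2. With all ends as tallied, without matching, the difference at the main start was −2.21 points. Both intervals of the main-start difference spanned 0, with lower bounds of −5.06 and −5.16 points. Without matching, the upstream shift was −0.342 bases (−0.689 to 0.00576), and 3.32% of the starts were placed differently.

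Of the 8 positions with at least 10 ends at HIST1H1D, 2 (25%) had a matched share that differed by more than 1.5-fold between edited and unedited ends. In the other 8 targets with at least 100 ends of each kind, 147 of 274 positions (53.6%) did. The pair at HIST1H1D were 26234947 (1.59-fold higher on edited RNA, 0.816 to 3.12) and 26234988 (0.550-fold, 0.125 to 2.42, on 2 edited ends), and both intervals include 1. These counts take no account of depth.

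The main-start share was also taken for each frequent deletion. It was 53.3% (49.1 to 57.5%) with the most frequent 6-base deletion and 55.2% (49.3 to 60.9%) with the second, a difference of −1.85 points (−8.97 to 5.35). It was 49.6% (40.9 to 58.3%) with the 21-base deletion and 47.96% (38.3 to 57.7%) with the 15-base deletion. Over the 12 most frequent deletions it ran from 44.4% to 55.6%. The median over the 12 was 50%, and 11 of the 12 lay below the unedited share of 55.2%. The other deletions with 9 ends, left out of the 12 by coordinate order, gave 66.7% (35.4 to 87.9%) and 55.6% (26.7 to 81.1%). Both of these lay above the unedited share, so the count below it depends on how ties were broken. Each of the 12 intervals held the unedited share, but those with 9 to 30 ends are wide.

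**Figure D4:**
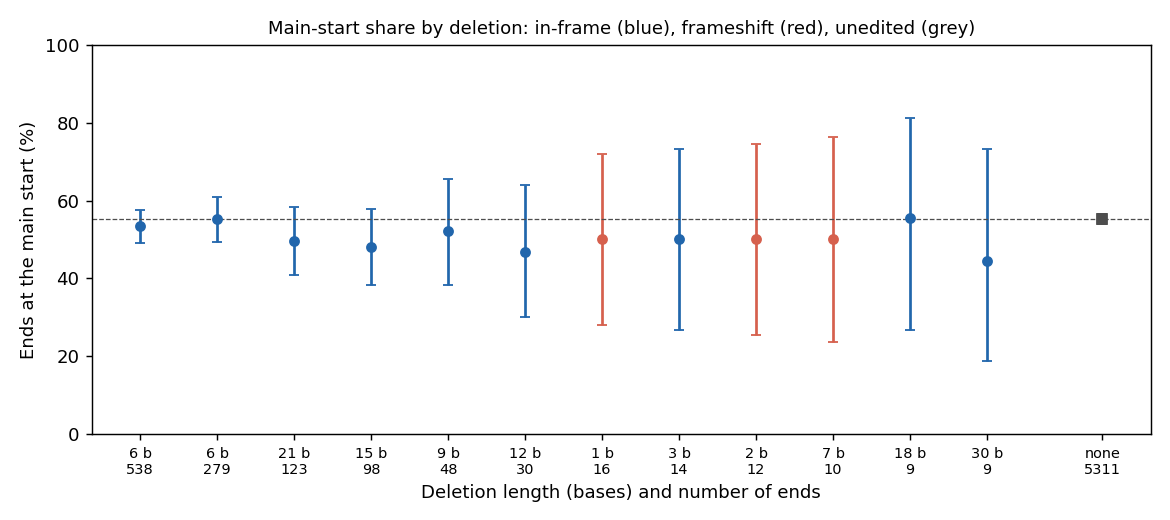
Share of ends at the main start, in percent with Wilson 95% intervals, for each of the 12 most frequent deletions (length in bases and number of ends under each point) and, at the right with the dashed line, for the 5311 unedited ends. The points lie between 44.4% and 55.6%, 11 of the 12 below the unedited share, and all 12 intervals include it. The other deletions with 9 ends, left out by coordinate order, are not drawn and lie above the unedited share, at 66.7% and 55.6%.

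Longer deletions gave the lower shares in order, within overlapping intervals. The main start held 58.1% (43.3 to 71.6%) of 43 ends with 1 or 2 bases deleted, 53.7% (50.6 to 56.9%) of 953 ends with 3 to 9, 52.2% (45.7 to 58.5%) of 232 ends with 10 to 19, and 48.4% (40.7 to 56.2%) of 155 ends with 20 or more. Deletions of 20 or more bases differed from those of fewer than 10 by −5.53 points (−13.9 to 2.88). The class of 20 or more bases came mostly from the 21-base deletion (123 ends). That of 3 to 9 bases came mostly from the 6-base deletions with 538 and 279 ends. An effect of length apart from these alleles was not tested. Deletions that began fewer than 90 bases from the main start gave 53.7% (499 ends) and those that began 90 or more bases away gave 52.6% (884 ends).

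In-frame and frameshift alleles were compared in the same way. The main start held 52.8% of in-frame ends (49.99 to 55.5%) and 55.6% of frameshift ends (47.1 to 63.7%), a difference of −2.79 points (−11.4 to 6.07). Position 26234989 held 35.9% (33.3 to 38.6%) of in-frame ends and 28.1% (21.2 to 36.3%) of frameshift ends. Position 26234990 held 8.50% (7.08 to 10.2%) of in-frame ends and 14.8% (9.80 to 21.8%) of frameshift ends. The differences there were 7.78 points (−0.743 to 15.2) at 26234989 and −6.31 points (−13.4 to −1.03) at 26234990. The last of these intervals excluded 0. It was not adjusted for the 3 positions compared, and it rests on 106 in-frame and 20 frameshift ends at that position.

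Set beside the other targets, the unedited profile of HIST1H1D was compact. The 3 most used positions held 97.5% of its unedited ends, against 55.8% to 93.2% in the other 8 targets with 100 ends of each kind, and 80% of its ends fell within 2 bases, from the 10th to the 90th percentile, against 4 bases at RBM4 and TMED9, 7 at ECI1 and up to 80 at C19orf43. Aligned on the main start, its profile overlapped most with those of C1orf63 (62.1% of ends at the same offsets) and TMED9 (57.5%), among targets with at least 100 unedited ends. Most of this overlap is fixed by the alignment. The main start alone held 55.2% of unedited ends at HIST1H1D, 78.3% at C1orf63 and 76.7% at TMED9. RBM4 (56.4%) and ECI1 (55.5%) overlapped nearly as much as TMED9.

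The share of starts placed differently on edited RNA was 2.69% at HIST1H1D, against 8.65% (ECI1) to 35.4% (LETMD1) in those 8 targets. TXNRD2, whose most deleted base lies 58 bases from its main start in coding sequence, had 1.83% placed differently and a main-start difference of −1.83 points (−11.7 to 14.9), on 35 unedited ends. At C19orf43, the only other one of the 9 with a distant site (most deleted base 102 bases downstream of the main start), 12.3% of the starts were placed differently, and the main-start share differed by 7.32 points (6.47 to 8.17) between edited and unedited ends. No unedited end of HIST1H1D started within 35 bases upstream of the most deleted base or past it, against 47.4% of those of C19orf43. Depth, the number of positions and the distance all differ between these targets, and no test of the difference was made.

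**Figure D5:**
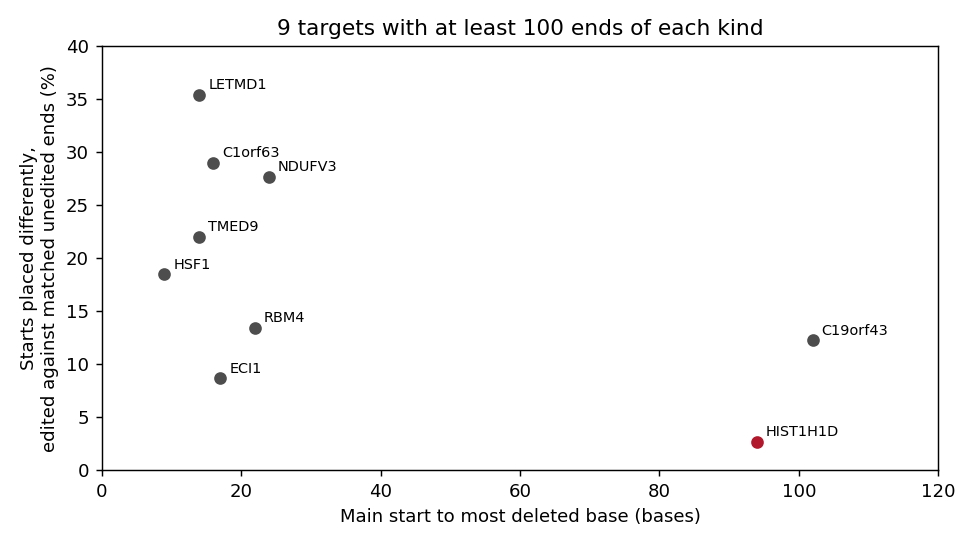
Share of starts placed differently between edited and matched unedited ends, in percent, against the distance in bases from the main start to the most deleted base, for the 9 targets with at least 100 ends of each kind. HIST1H1D (red) is at 94 bases and 2.69%, and C19orf43 at 102 bases and 12.3%; the other 7 lie at 9 to 24 bases and between 8.65% and 35.4%.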

How the data were processed

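In CRISPR-Cap, per the labels' protocols, capped RNA 5′ ends receive an oligonucleotide that ends in 8 random bases and are copied with a primer for each gene. Collapsing by these bases is not stated; lines that are PCR copies of one molecule would make all intervals too narrow. The authors deposited 1 line per end with its class, position and deletion edges; both libraries are pooled, so p-values and replicate errors could not be had. STAR and hg38 are named in the submitters' processing notes, without settings. Edited and unedited classes are the authors'. Positions were taken as counted from 0 and 1 was added. Each deletion entered the matched unedited share in proportion to the edited ends that carry it; the interval used the number of unedited ends kept. Python 3.11.15, numpy 2.4.6 and pandas 2.3.3 were used. The matching was tested on simulated data. Named starts are the 10 positions with the most ends, named alleles the 12 deletions with the most ends (ties by coordinate), and named targets the 2 with the most similar unedited profile and C19orf43; other targets are named as range ends or coding sites. Members, words and lists were chosen with earlier results of these data known. STAP-seq files hold other promoters and were not used.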

Additional observations from a re-analysis of the deposited data

How the results depend on the processing

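No paired analysis was possible because the list does not separate the 2 libraries, and leaving out a library could not be run for the same reason. Of 47 alternatives, 35 stayed within the interval of the main value or, where it has none, within 1.5 times of it. Counting each distinct pair of start and deletion once among the edited ends gave −13.6 points for the main start, an upstream shift of −1.82 bases and 13.9% of starts placed differently; by construction this gives rare starts the weight of common ones. The in-frame share was 93.1% with deletions of at least 3 bases, 96.7% with deletions of at least 10 ends and 84.0% without the most frequent deletion. In alternatives chosen after seeing the data, it was 50.6% when each distinct deletion counted once and 49.2% without the 6 most frequent, which are all in-frame. The edited share was 18.03% with deletions of at least 10 ends and 13.7% without the most frequent deletion, which held 46.1% of the edited ends when only deletions of at least 10 ends were kept; these follow from leaving out edited ends. With a 2-fold limit, 0 positions differed in place of 2. In-frame minus frameshift main-start share was 2.65 points with deletions of at least 10 ends, against −2.79, both with intervals that span 0.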

Other observations

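A pair of deletions with the same upstream edge differed in how many ends carried them. The 6-base deletion at 26234893 to 26234898 was in 279 ends, and the 7-base deletion at 26234892 to 26234898 was in 9 ends. Both have a junction repeat of 2 bases. The first keeps the reading frame, and the second puts a stop at codon 18. The number of ends at the main start was 154 of 279 (55.2%) and 5 of 9 (55.6%). Other in-frame deletions with a repeat of 2 bases were rare. Those at 26234892 to 26234903, 26234893 to 26234907 and 26234879 to 26234911 had 6 ends each, and that at 26234879 to 26234920 had 1. Other frameshift deletions with this repeat had 5 ends (26234892) and 4 ends (26234881 to 26234893). The pair was chosen after its values were seen, and no cause was tested.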
